A study of Mus musculus with 4 samples.

Results

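Collagen and matrix expression by fibroblasts was followed through 35 listed genes: the collagens of fibrils, of basement membranes and of beaded filaments, the small proteoglycans, elastic fibre and glycoprotein genes, matrix enzymes with their inhibitors, and the receptors PDGFRα and PDGFRβ, the surface marker Thy1 and the BMP antagonist Grem1. The members were chosen by name, and all 35 were among the 34866 rows of the deposited table. Of these, 34 passed the filter on low counts, and Fap, a fibroblast surface protease, did not, with 3, 0, 2 and 2 counts in the order of wild type 1, wild type 2, knockout 1 and knockout 2. RNA came from the mucosa of the gastric corpus, the acid-secreting body of the stomach. One genotype was Muc6 +/+ (wild type, 2 libraries) and the other Muc6 -/- (knockout, 2 libraries). The labels used here give no age, strain or treatment, do not say whether each library is a different animal, and do not say how the mucosa was separated from the muscle beneath it. P-values therefore measure the spread between these libraries, which may be technical. The design asked how loss of Muc6, a secreted mucin of gland mucous cells, bears on gastric carcinogenesis.

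Fibrillar collagens form the tensile fibres of the lamina propria, the loose tissue between the glands. Type IV collagen, laminins and nidogen build the sheet on which epithelial, endothelial and muscle cells sit. In the stomach wall these genes are expressed by fibroblasts and, for several of them, also by smooth muscle, pericytes and endothelium. The summed level of such genes in bulk RNA follows both how much stroma a piece of tissue holds and how much RNA each stromal cell makes. Fewer cells of a type and less RNA per cell cannot be told apart in such samples.

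Total counts ranged from 20327745 to 27946423 per library. Muc6 was at 344 and 312 CPM (counts per 1e6 counts) in the wild-type libraries, and 0 and 0.413 CPM in the knockouts, so the targeted gene followed the labels. Genes of acid-secreting and surface mucous cells were present in all 4 libraries: Atp4a, the gastric proton pump, ranged from 353 to 10500 CPM and Muc5ac from 4869 to 12420 CPM. Knockout 1 stood apart from the other 3 libraries in regional genes, which were looked up after its values were known. Gast, the gastrin gene of the antrum, was at 9.77 CPM there and at most at 0.0403 CPM elsewhere. Krt13, a keratin of squamous epithelium, was at 117 CPM there, at 5.61 CPM in knockout 2 and at 0.847 and 0.260 CPM in the wild-type libraries. The chief cell gene Pgc was at 2237 CPM in knockout 1 and at 63570 CPM or more in the others. Transcripts of 4 Y-linked genes together made 136 and 121 CPM in the wild-type and 1.43 and 2.44 CPM in the knockout libraries. Genotype and Y-linked expression therefore cannot be told apart for any gene below.

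The promoters of members whose levels moved together, and of the member that departed most from them, are shown as RefSeq windows on GRCm38.p6, each of 300 bases from 250 before to 50 after an annotated start. Col3a1 (chr1:45311288-45311587, plus strand) and Col1a2 (chr6:4505368-4505667, plus strand) encode chains of types III and I collagen. Col4a1 (chr8:11312777-11313076, minus strand) and Col4a2 lie on opposite strands with annotated starts 21 bases apart, and their windows share 78 bases. Col18a1 has 2 annotated starts, the upstream one at chr10:77166481-77166780 and the downstream one at chr10:77113656-77113955, both on the minus strand. The deposited values are per gene and do not tell which start was used. Capitals mark matches, on either strand, to CCAAT (the CCAAT box), to TATAAA (the TATA box), to GGGCGG (the GC box) and to TGANTCA (the site of AP-1 factors).
Col3a1: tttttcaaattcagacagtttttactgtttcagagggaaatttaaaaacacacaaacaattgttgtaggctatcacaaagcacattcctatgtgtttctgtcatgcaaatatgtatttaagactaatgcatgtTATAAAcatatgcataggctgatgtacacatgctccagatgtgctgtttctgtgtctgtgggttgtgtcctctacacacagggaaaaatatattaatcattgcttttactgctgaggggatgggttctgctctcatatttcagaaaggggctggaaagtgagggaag
Col1a2: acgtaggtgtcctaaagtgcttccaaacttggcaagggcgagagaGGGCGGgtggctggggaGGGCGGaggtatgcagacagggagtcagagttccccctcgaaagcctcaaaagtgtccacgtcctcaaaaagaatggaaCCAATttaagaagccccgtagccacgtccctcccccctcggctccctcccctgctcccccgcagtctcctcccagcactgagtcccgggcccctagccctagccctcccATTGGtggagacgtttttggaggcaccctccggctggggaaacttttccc
Col4a1: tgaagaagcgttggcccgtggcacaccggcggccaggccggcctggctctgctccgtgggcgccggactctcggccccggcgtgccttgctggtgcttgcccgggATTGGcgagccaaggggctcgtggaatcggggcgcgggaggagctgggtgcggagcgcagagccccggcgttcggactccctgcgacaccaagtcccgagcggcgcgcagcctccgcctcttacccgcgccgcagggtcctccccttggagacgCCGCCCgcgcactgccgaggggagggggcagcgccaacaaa
Col18a1, upstream start: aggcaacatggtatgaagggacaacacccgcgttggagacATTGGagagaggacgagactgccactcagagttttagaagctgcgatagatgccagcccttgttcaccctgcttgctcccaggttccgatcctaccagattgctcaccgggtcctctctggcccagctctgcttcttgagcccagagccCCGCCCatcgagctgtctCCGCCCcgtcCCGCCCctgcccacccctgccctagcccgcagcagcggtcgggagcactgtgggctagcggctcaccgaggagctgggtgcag
Col18a1, downstream start: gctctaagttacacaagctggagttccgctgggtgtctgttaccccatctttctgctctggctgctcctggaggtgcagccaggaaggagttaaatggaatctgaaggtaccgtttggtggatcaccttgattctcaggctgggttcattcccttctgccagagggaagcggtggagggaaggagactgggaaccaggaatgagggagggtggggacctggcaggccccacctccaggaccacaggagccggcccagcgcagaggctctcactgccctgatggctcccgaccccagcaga

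The window of Col3a1 held 1 TATA box match and none of the other motifs, and that of Col1a2 held 2 CCAAT box and 2 GC box matches. The Col4a1 window held 1 match each to the CCAAT box and the GC box. The upstream Col18a1 window held 1 CCAAT box and 3 GC box matches, and the downstream one held none of the 4 motifs. Among 32851 windows of the same length, 37.4% held a CCAAT box, 35.7% a GC box, 13.6% a TATA box and 7.81% an AP-1 site on either strand. Windows were found for 23 of the 35 members, 27 windows in all. Of those, 9 held a CCAAT box, 16 a GC box, 3 a TATA box and 1 an AP-1 site. Motifs did not overlap one another in the printed windows. These matches describe the letters only.

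The summed level of the 35 genes differed far more between libraries of one genotype than between the genotypes. It was 248 CPM in wild type 1, 1586 CPM in wild type 2, 478 CPM in knockout 1 and 1617 CPM in knockout 2. The second library of each genotype was high and the first was low, so the genotypes overlapped. Wild type 2 was 6.38-fold above wild type 1 (exact 95% interval 6.21 to 6.56), and knockout 2 was 3.38-fold above knockout 1 (3.31 to 3.45). These intervals, and the others given for ratios of counts, cover counting error only. As shares of all counts, the members took 0.0221%, 0.146%, 0.0525% and 0.180% in the same order. The sums were not tested, since an exact permutation test (n = 2 and 2) could reach no p under 0.33. Without Col18a1, whose values were seen first, the sums were 245, 1552, 302.5 and 1407 CPM and the fold between the knockout libraries was 4.65.

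Gene by gene, all 34 tested members were higher in wild type 2 than in wild type 1, and 33 of 34, all but Timp1, were higher in knockout 2 than in knockout 1, where 39.7% and 50.9% of all genes tested were. The median difference was 3.28 log2 CPM in wild type and 2.56 in knockout, against -0.08 and 0.01 over the 14067 genes tested. At least 4-fold differences were seen for 28 members in wild type and 23 in knockout, and for 22 in both. Over all genes tested these shares were 5.92%, 4.9% and 2.23%. Across the 34 members the correlation between the differences in both genotypes was r = 0.52 over genes that share their libraries, and it was 0.52 over all genes tested.

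**Figure D1:**
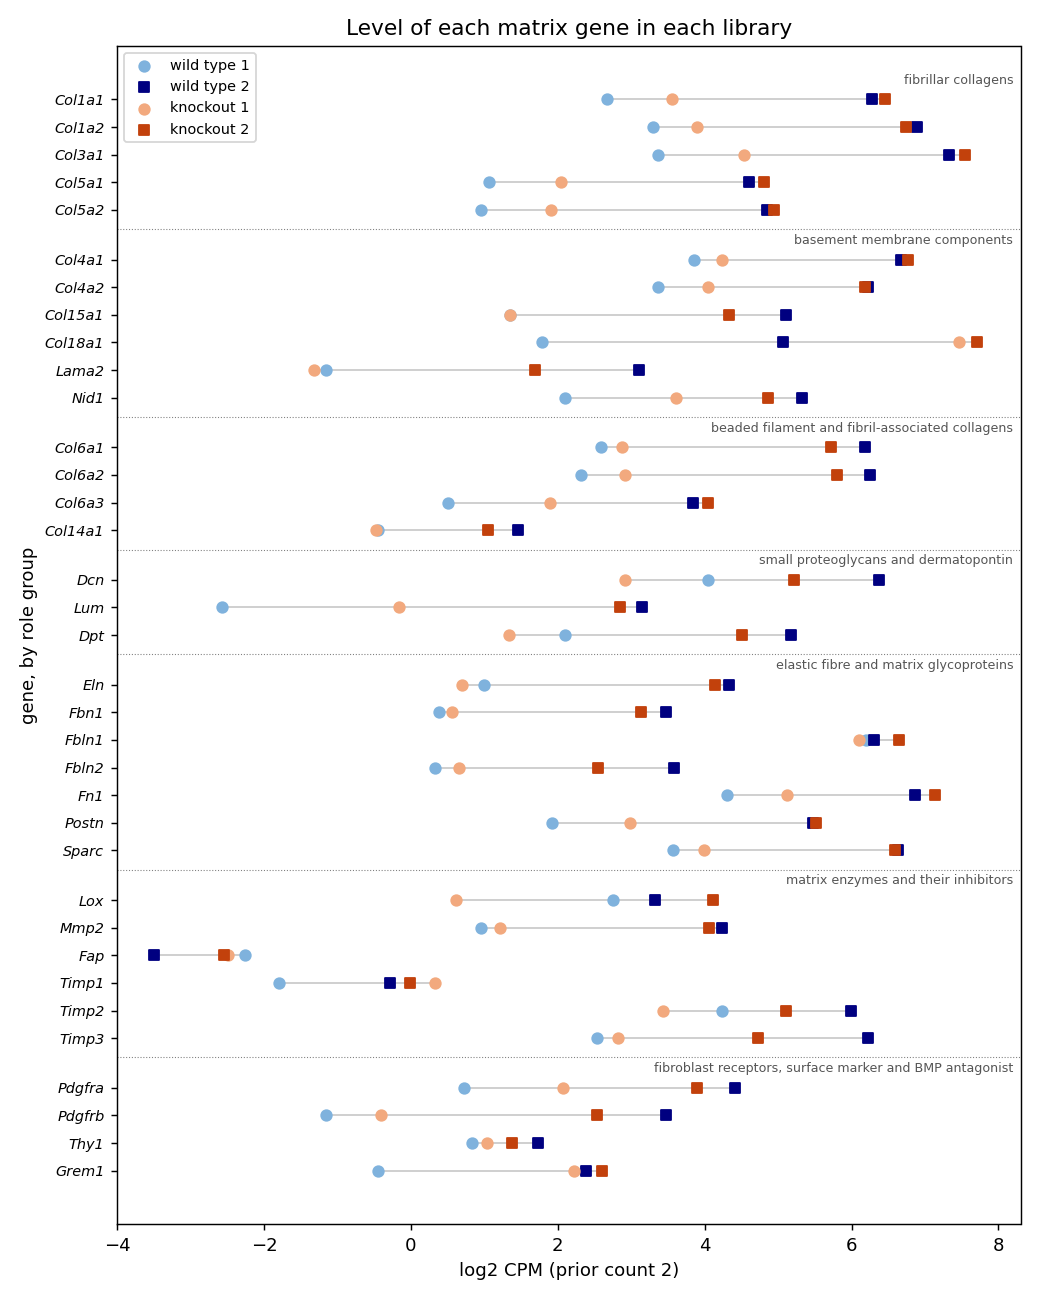
Level of each of the 35 genes in each library, in log2 CPM with a prior count of 2, grouped by role. Circles are the first and squares the second library of a genotype, blue for wild type and orange for knockout. For most genes both squares lie to the right of both circles, while Fbln1 varies little and Col18a1 has both knockout points on the right.

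Fibrillar collagens showed this difference evenly. Col1a1, which encodes the α1 chain of type I collagen, was at 6.29 and 77.8 CPM in the wild-type libraries and at 11.7 and 87.5 CPM in knockout. Col1a2, its α2 partner, was at 9.72 and 119 CPM versus 14.9 and 107 CPM. Col3a1, the chain of type III collagen, was at 10.2 and 160.2 CPM versus 23.2 and 187 CPM. In each case, and wherever levels are set out this way, the first pair of values is wild type 1 and 2 and the second is knockout 1 and 2. The second libraries were high, the first were low and the genotypes overlapped. The 5 fibrillar genes were 12.1-fold to 15.6-fold higher in wild type 2 than in wild type 1 and 6.95-fold to 8.36-fold higher in knockout 2 than in knockout 1. Col5a1 and Col5a2, which encode chains of the type V collagen that nucleates fibrils, reached at most 28.02 and 30.7 CPM. The log2 fold changes of knockout against wild type ran from -0.07 ± 1.47 for Col1a2 to 0.30 ± 1.58 for Col3a1 (SE, n = 2 per group), with adjusted p = 0.988 and 0.954 in the edgeR quasi-likelihood fit over all genes.

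In proportion to each other the fibrillar chains held steadier than their levels. Per transcript length, Col1a1 stood at 0.584 of Col1a2 in wild type 1 (exact 95% interval 0.474 to 0.717), 0.591 in wild type 2 (0.554 to 0.632), 0.706 in knockout 1 (0.598 to 0.833) and 0.736 in knockout 2 (0.695 to 0.780). Both knockout ratios were above both wild-type ratios. Between genotypes, however, only the intervals of wild type 2 and knockout 2 did not overlap. Col5a1 stood at 0.221 to 0.244 of Col1a1 in the 4 libraries. Col3a1 stood at 1.74-fold Col1a1 in wild type 1 and at 2.12-fold to 2.28-fold in the other 3. These are ratios of TPM (transcripts per 1e6 transcripts) and depend on the annotated lengths. The comparison of a ratio between libraries does not.

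Among basement membrane genes, Col4a1 and Col4a2, which encode the chains of the common type IV collagen trimer, were likewise high in the second libraries. Col4a1 was at 14.3 and 102 CPM in the wild-type libraries and at 18.8 and 109 CPM in knockout, and Col4a2 at 10.2 and 74.4 CPM versus 16.3 and 72.4 CPM. Their TPM ratio was between 1.13 and 1.47 in the 4 libraries. Col15a1, a basement membrane-associated collagen, was at 2.46 and 34.5 CPM versus 2.46 and 20.1 CPM. Lama2, the laminin α2 chain gene, was at 0.363 and 8.48 CPM versus 0.314 and 3.14 CPM, resting on 9 and 7 counts in the first libraries. Nid1, which encodes the linker protein nidogen, was at 4.19 and 39.8 CPM versus 12.1 and 28.9 CPM. The second libraries were high for all 5 of these genes and no log2 fold change between genotypes passed.

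Col18a1 was the exception. It encodes type XVIII collagen, a basement membrane collagen whose end fragment is endostatin, and lies on the minus strand of chromosome 10 from 77052178 to 77166548 in mm10. It was at 3.35 and 33.4 CPM in the wild-type libraries and at 176 and 209.7 CPM in knockout, from 83, 642, 3924 and 5081 counts. Both knockout libraries were above both wild-type libraries. Knockout 2 exceeded knockout 1 by only 1.19-fold (exact 95% interval 1.14 to 1.24), while wild type 2 was 9.99-fold above wild type 1 (7.94 to 12.7). Its log2 fold change came to 3.40 ± 1.15 (SE, n = 2 per group), with an unadjusted p of 0.0415 and adjusted p = 0.297 in the edgeR quasi-likelihood fit over all genes. It therefore did not pass over all genes tested. DESeq2 gave 3.35 with an adjusted p of 0.00546, and across the fits with 1 library left out the log2 fold change stayed positive, from 2.53 to 5.84. The adjusted p by edgeR or limma ranged from 0.166 to 0.738 over the alternatives. Of the 4 libraries, wild type 1 had the lowest Col18a1 level and also the lowest sum over the 35 genes.

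Col18a1 also stood apart in proportion to other basement membrane genes. Per transcript length it was at 0.323 and 0.455 of Col4a1 in the wild-type libraries and at 12.9-fold and 2.65-fold Col4a1 in knockout. Against Col15a1, a collagen of the same subfamily, it was at 1.47-fold and 1.05-fold in wild type and 77.0-fold and 11.3-fold in knockout. It made up 1.35% and 2.11% of the summed CPM of the 35 genes in wild type and 36.8% and 13.0% in knockout. In TPM it was the highest member in both knockout libraries, at 70.3 and 79.9, where Fbln1 (27.9 in wild type 1) and Dcn (66.4 in wild type 2) were highest in wild type. Markers of the antrum and of squamous epithelium were high in knockout 1, as given above, and their part in this difference was not tested. Without knockout 1 the log2 fold change of Col18a1 was 3.44. Knockout 2 also held more Krt13 than wild type, at 5.61 CPM against 0.847 and 0.260 CPM. Leaving out knockout 1 therefore does not remove such transcripts from the comparison.

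**Figure D2:**
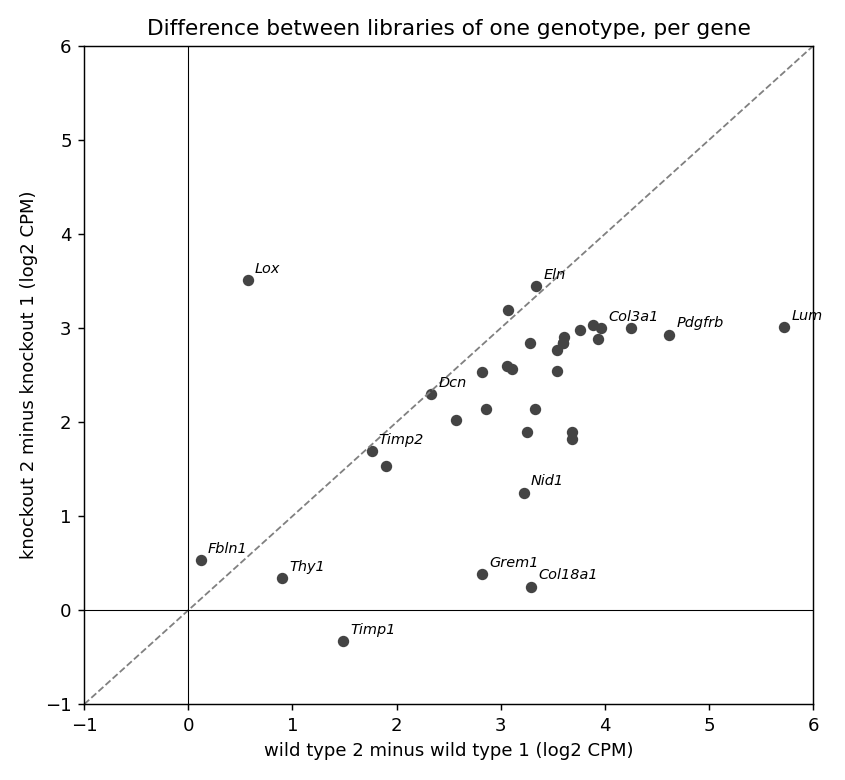
Difference between the second and the first library of a genotype for each of the 34 tested genes, in log2 CPM, wild type on the horizontal and knockout on the vertical axis. The dashed line marks equal differences. Most points lie in the upper right, below the line. Fbln1 and Thy1 lie near the origin, and Col18a1, Grem1 and Timp1 differ in wild type but little in knockout.

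Type VI collagen forms beaded filaments around cells. Col6a1 was at 5.93 and 72.7 CPM in the wild-type libraries and at 7.26 and 52.7 CPM in knockout. Col6a2 was at 4.88 and 75.8 CPM versus 7.48 and 55.8 CPM, and Col6a3 at 1.33 and 14.2 CPM versus 3.63 and 16.3 CPM. Col14a1, a collagen that decorates fibrils, was low throughout, at 0.645 and 2.65 CPM versus 0.627 and 1.98 CPM. The second libraries were again the high ones. For Col6a2, the most abundant of the 4 per length, the log2 fold change stood at -0.35 ± 1.55 (SE, n = 2 per group, adjusted p = 0.944 in edgeR).

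The small leucine-rich proteoglycans decorin (Dcn) and lumican (Lum) bind collagen fibrils and regulate their thickness, and dermatopontin (Dpt) binds decorin. Dcn was at 16.4 and 82.9 CPM in the wild-type libraries and at 7.44 and 37.0 CPM in knockout. Wild type 2 was highest and knockout 1 lowest, and knockout 2 was above wild type 1, so the genotypes overlapped. Its log2 fold change came to -1.16 ± 1.12 (SE, n = 2 per group, adjusted p = 0.683 in edgeR). Relative to Col1a2, per transcript length, Dcn stood at 5.14-fold (exact 95% interval 4.37 to 6.05) and 2.12-fold (1.99 to 2.27) in wild type, and at 1.52-fold (1.26 to 1.84) and 1.05-fold (0.973 to 1.13) in knockout. Both knockout ratios were below both wild-type ratios. Dpt was at 4.19 and 36.0 CPM versus 2.42 and 22.7 CPM. Lum rested on 2 counts in wild type 1, where wild type 2 was 109-fold higher with an interval of 29.7 to 908, and it was at 8.80, 0.806 and 7.14 CPM in the other libraries.

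Among glycoproteins, Sparc was the most abundant per transcript length by its mean over the 4 libraries, at 7.17, 60.6, 13.2 and 76.6 TPM. Sparc, a collagen-binding matricellular protein gene, was at 11.8 and 99.0 CPM in the wild-type libraries and at 15.8 and 96.4 CPM in knockout, a log2 fold change of 0.02 ± 1.32 (SE, n = 2 per group, adjusted p = 0.995 in edgeR). Fn1, which encodes fibronectin, was at 19.6 and 117 CPM versus 34.7 and 141 CPM (0.37 ± 1.10, adjusted p = 0.912 in edgeR). Postn, the periostin gene, was at 3.71 and 44.2 CPM versus 7.80 and 45.7 CPM. The elastic fibre genes Eln, for elastin, and Fbn1, for fibrillin-1, were at 1.89 and 20.04 CPM versus 1.52 and 17.5 CPM and at 1.21 and 11.1 CPM versus 1.39 and 8.71 CPM. Fbln2, a fibulin gene, was at 1.17 and 11.9 CPM versus 1.48 and 5.78 CPM (-0.84 ± 1.29, adjusted p = 0.806 in edgeR). For these 6 genes both second libraries were above both first ones and the genotypes overlapped.

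Fbln1, the gene of the related fibulin-1, had the same order of libraries but far smaller differences. It was at 73.1 and 79.4 CPM in the wild-type libraries and at 68.7 and 99.4 CPM in knockout. Wild type 2 exceeded wild type 1 by 1.09-fold (exact 95% interval 1.015 to 1.17) and knockout 2 exceeded knockout 1 by 1.45-fold (1.36 to 1.54). The genotypes overlapped, with a log2 fold change of 0.14 ± 0.228 (SE, n = 2 per group, adjusted p = 0.817 in edgeR). The standard error was the smallest among the 34 tested members, whose median was 1.35, against 0.256 over all genes tested. Per length, Fbln1 was at 81.7-fold Fbln2 in wild type 1 and 60.8-fold in knockout 1, but at 8.75-fold and 22.5-fold in the second libraries.

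Of the matrix enzymes, Mmp2, the gelatinase A gene, was at 1.85 and 18.8 CPM in the wild-type libraries and at 2.24 and 16.6 CPM in knockout, with both second libraries high. Lox, the lysyl oxidase that crosslinks collagen and elastin, was at 6.65 and 9.94 CPM versus 1.43 and 17.3 CPM. It was thus lowest in knockout 1 and highest in knockout 2, a 12.0-fold difference (exact 95% interval 8.39 to 17.8), while the wild-type libraries differed 1.495-fold (1.21 to 1.85). The inhibitor gene Timp2 was at 18.7 and 63.7 CPM versus 10.7 and 34.5 CPM (log2 fold change -0.86 ± 0.848, SE, n = 2 per group, adjusted p = 0.687 in edgeR). Timp3, whose product is bound to the matrix, was at 5.72 and 74.6 CPM versus 6.99 and 26.2 CPM (-1.27 ± 1.36, adjusted p = 0.716 in edgeR). In both, each genotype held 1 low and 1 high library and the genotypes overlapped. Timp1, the inducible inhibitor, was rare, at 0.202 and 0.729 CPM from 5 and 14 counts in the wild-type libraries and at 1.16 and 0.908 CPM from 26 and 22 counts in knockout. Both its knockout libraries were higher, with a log2 fold change of 1.17 ± 0.853 (adjusted p = 0.577 in edgeR).

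The PDGF receptors mark fibroblasts (Pdgfra) and pericytes with other mural cells (Pdgfrb). Pdgfra was at 1.57 and 21.2 CPM in the wild-type libraries and at 4.12 and 14.8 CPM in the knockout libraries (log2 fold change -0.26 ± 1.34, SE, n = 2 per group, adjusted p = 0.953 in edgeR). Pdgfrb was at 0.363 and 11.03 CPM versus 0.672 and 5.69 CPM, from 9 and 15 counts in the first libraries. Grem1, a secreted BMP antagonist of gut stroma, was at 0.645 and 5.10 CPM versus 4.57 and 5.98 CPM (0.88 ± 1.02, adjusted p = 0.740 in edgeR). Wild type 1 alone was low. Thy1, a surface marker of fibroblasts and T cells, was at 1.69 and 3.23 CPM versus 1.97 and 2.52 CPM, a narrow range within which the genotypes overlapped.

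Set against all genes tested, no member of the matrix list was called between genotypes in edgeR. Muc6, the targeted gene, was not called either, with a log2 fold change of -10.55 (adjusted p = 0.178 in edgeR). The absence of a call in this fit therefore does not show the absence of a difference. Of 14067 genes, 0 (0%) passed an adjusted p of 0.05 in edgeR, and 15.9% had an unadjusted p under 0.05 (9.22% higher and 6.68% lower in knockout). Among the 34 members these counts were 0 and 1, the latter Col18a1, higher. DESeq2 called 7.57% of genes with an adjusted p, and 1 member, Col18a1. Of the members, 15 were higher in knockout and 19 lower, with a median log2 fold change of -0.11, beside 49.9% higher and a median of 0.00 over all genes tested. With limma voom 24 were higher and the median was 0.24, and with the replicate number as a block 20 were higher and the median was 0.15. Levels did not overlap between genotypes for 2 members, Col18a1 and Timp1, both higher, where 50.1% of all genes tested did not overlap, 26.3% with knockout higher and 23.8% with knockout lower. For 30 of 34 members the difference between genotypes was smaller than its standard error.

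The direction over the list turned with single libraries. Without wild type 2, all 34 members were higher in knockout (median 2.30), where 53% of all genes were. Without knockout 2, 3 of 34 were higher (median -1.99, 45.2% of all genes). Leaving out wild type 1 gave 4 of 34 (median -0.95, 52.6% of all genes) and leaving out knockout 1 gave 27 of 34 (median 0.60, 44.7% of all genes). In each of these fits the spread came from the genotype with 2 libraries. Set pair by pair, which was added after seeing the data, knockout 1 was above wild type 1 for 26 of 34 members (median log2 difference 0.51) and above wild type 2 for 2. Knockout 2 was above wild type 1 for all 34 and above wild type 2 for 13 (median -0.19). Between the 2 libraries with high sums the median was thus closest to 0 of the 4 pairs.

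**Figure D3:**
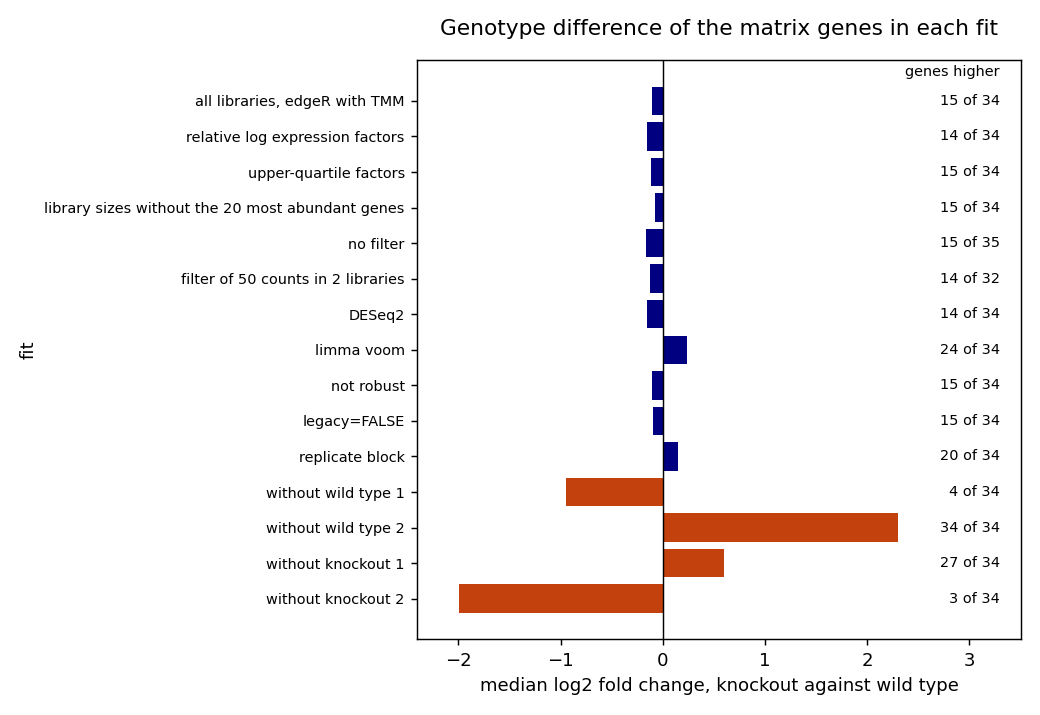
Median log2 fold change of the tested matrix genes, knockout against wild type, in each fit, with the number of genes higher in knockout at the right. Blue bars use all 4 libraries and orange bars leave 1 out. With all libraries the medians lie between -0.16 and 0.24, and without 1 library they run from -1.99 to 2.30.

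The make-up of the matrix transcripts also varied by library. Fibrillar collagens made up 12.1% and 25.8% of the summed CPM of the 35 genes in wild type and 12.0% and 27.2% in knockout. Glycoproteins and elastic fibre genes made up 45.3% in wild type 1, where Fbln1 weighed most, and 24.1% to 27.5% in the others. Small proteoglycans with dermatopontin made up 8.33% and 8.05% in the wild types and 2.23% and 4.14% in knockout. Matrix enzymes and inhibitors made up 13.4% and 10.6% against 4.72% and 5.91%, and basement membrane genes 14.02% and 18.4% against 47.2% and 27.4%. These 3 of the 7 role groups did not overlap between genotypes in these shares, beside 50.1% of all genes tested whose levels did not overlap. Shares of the same sum depend on each other, so a higher share of Col18a1 lowers the rest. The basement membrane difference rested on Col18a1: without it, a sum chosen after its values were seen, the other 5 genes made up 12.85% and 16.7% in the wild types and 16.5% and 16.6% in the knockouts, which overlap. Proteoglycans then made up 8.44% and 8.22% against 3.52% and 4.75%, and enzymes with inhibitors 13.6% and 10.8% against 7.46% and 6.79%, so these groups still did not overlap. Fibrillar collagens then made up 12.3% and 26.4% against 19.0% and 31.3%. The shares were not tested.

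**Figure D4:**
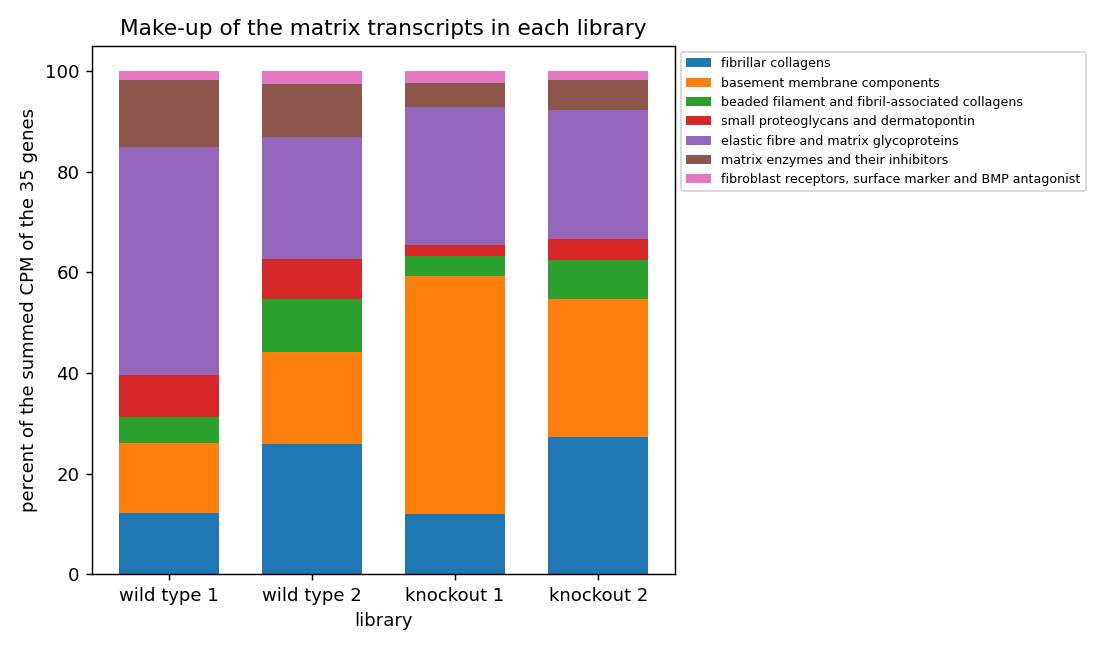
Share of each role group in the summed CPM of the 35 genes, as percent, in each library. Basement membrane genes take more in both knockout libraries, where Col18a1 alone takes 36.8% and 13.0%, and small proteoglycans and enzymes with inhibitors take less.

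Genes around the members were counted from lists of matrix pathways. These lists, like the members, were drawn up with earlier results known. Of 23 tested collagen processing genes, 12 were higher in knockout and 11 lower (median 0.07). Of these, 4 had an unadjusted p under 0.05, all higher, where 15.9% of all genes tested had such a p, and none passed over all genes. P4ha1, a prolyl hydroxylase subunit, was at 16.3 and 21.4 CPM in the wild-type libraries and at 46.4 and 39.5 CPM in the knockout libraries (log2 fold change 1.19 ± 0.198, SE, n = 2 per group, adjusted p = 0.209 in edgeR). Plod3, a lysyl hydroxylase gene, was at 23.3 and 23.2 CPM versus 38.8 and 37.4 CPM (0.71 ± 0.118, adjusted p = 0.209 in edgeR), and Colgalt1, a collagen galactosyltransferase gene, at 24.5 and 30.8 CPM versus 39.1 and 43.8 CPM. These 3 genes were named because their groups did not overlap and their unadjusted p was under 0.05, so their separation follows from that choice. Groups did not overlap with knockout higher for 7 of the 23 genes and with knockout lower for 2, beside 26.3% and 23.8% of all genes tested. The collagen chaperone Serpinh1, picked after its values were seen, was at 4.999 and 40.4 CPM versus 8.60 and 41.1 CPM, like the fibrillar collagens.

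The TGF-β list had 7 members higher and 12 lower of 19 tested (median -0.21). Only Tgfb1, the ligand gene, had an unadjusted p under 0.05, where 15.9% of all genes tested had such a p. Tgfb1 was named for that p and for groups that did not overlap, so its separation follows from that choice. It was at 3.18 and 5.57 CPM in the wild-type libraries and at 10.5 and 8.29 CPM in the knockout libraries (log2 fold change 1.11 ± 0.377, SE, n = 2 per group, adjusted p = 0.296 in edgeR). All 4 PDGF ligand genes were lower (median -0.58, lowest adjusted p = 0.411 in edgeR). Groups did not overlap, with knockout lower, for 2 of the 4, beside 23.8% of all genes tested. Knockout 2 was above wild type 1 for 2 of the 4. Among 19 matrix receptors, 13 were higher (median 0.18). The collagen-binding integrin gene Itga2 was at 2.30 and 1.41 CPM versus 48.7 and 12.1 CPM (4.02 ± 0.842, adjusted p = 0.226 in edgeR), the hyaluronan receptor Cd44 at 6.01 and 11.7 CPM versus 109 and 32.2 CPM, and the syndecan gene Sdc4 at 123 and 123 CPM versus 177 and 159 CPM. These 3 receptor genes were named because their groups did not overlap and their unadjusted p was under 0.05, so their separation follows from that choice. No other receptor had such a p, where 15.9% of all genes tested had. Groups did not overlap with knockout higher for 5 of the 19 receptors and with knockout lower for 2, beside 26.3% and 23.8% of all genes tested.

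Of 19 other proteases and inhibitors, 11 were higher (median 0.30), and Plat, tissue plasminogen activator, was at 4.35 and 4.48 CPM in the wild-type libraries and at 64.3 and 13.8 CPM in knockout (adjusted p = 0.247 in edgeR). The other basement membrane genes had 5 of 17 higher (median -0.41). The 2 with an unadjusted p under 0.05 were laminin chain genes, where 15.9% of all genes tested had such a p. Lamb3, of epithelial laminin-332, was at 129 and 91.1 CPM versus 588 and 282 CPM (log2 fold change 1.98 ± 0.459, SE, n = 2 per group, adjusted p = 0.230 in edgeR), and Lama5 at 13.99 and 23.3 CPM versus 77.7 and 38.5 CPM. Of 12 other collagens 5 were higher (median -0.17) and of 23 other glycoproteins and proteoglycans 6 were higher (median -0.55), none with an unadjusted p under 0.05. Among the proteases and inhibitors only Plat had such a p. Plat, Lamb3 and Lama5 were named for that p and for groups that did not overlap, so their separation follows from that choice. Itga2, Cd44, Plat, Lamb3 and Lama5 were all highest in knockout 1, the library where Gast and Krt13 were also highest. The part of that library's make-up in these values was not tested. In the lists of other collagens and other glycoproteins, all 12 and all 23 genes were higher in wild type 2 than in wild type 1, and 11 and 22 in knockout 2 than in knockout 1.

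Markers of other cell types that the mucosal samples could hold differed between libraries of a genotype alongside the matrix genes. The 11 smooth muscle genes summed to 406 and 2484 CPM in the wild-type libraries and to 542 and 2520 CPM in knockout, and all 11 were higher in the second library of both genotypes. Myh11, smooth muscle myosin, was at 86.4 and 591 CPM versus 82.7 and 419 CPM. The 12 blood endothelial genes summed to 27.0 and 163 CPM versus 28.3 and 90.4 CPM, and the 6 pericyte genes to 21.1 and 171 CPM versus 57.1 and 108.5 CPM. All 6 pericyte genes were higher in wild type 2 than in wild type 1, and 5 in knockout 2 than in knockout 1. The exception, Notch3, weighed much in the sum of knockout 1. It was at 1.49 and 4.01 CPM versus 30.2 and 16.6 CPM. Fibroblast markers outside the list summed to 61.2 and 298 CPM versus 64.5 and 163 CPM, with 17 and 16 of 17 tested genes higher in the second library. The part of muscle, vessels or sampled depth of the tissue in the matrix values was not tested.

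The remaining lists had lower wild-type medians. Telocyte and subepithelial genes had medians of 2.49 log2 CPM between the wild-type and 2.07 between the knockout libraries, lymphatic genes 1.86 and 1.71, immune genes 1.76 and 1.42, and interstitial cells of Cajal 1.03 and 0.77. The adipocyte medians were 1.37 and 0.51 and those of glia and nerve 0.86 and -0.08. Epithelial genes had medians of -0.39 and -0.68, so most were lower where the matrix genes were high. Of the 9, 1 was higher in wild type 2 than in wild type 1 and 2 in knockout 2 than in knockout 1. Their sum, however, was higher in the second libraries, at 94810 and 169100 CPM versus 31720 and 101500 CPM. Of the adipocyte markers, Adipoq and Lep had 0 counts in all 4 libraries. Mesothelial genes summed to 2759, 1821, 4621 and 1920 CPM, nearly all from the keratin Krt19, which gastric epithelium also expresses, and Msln was at most at 3.32 CPM. The most abundant gene of several lists, which need not be specific in the stomach, differed in another order. F3, listed for telocytes, was at 6.57 and 18.2 CPM versus 90.1 and 7.43 CPM, C3 at 30.7 and 63.7 CPM versus 9.54 and 25.1 CPM, and Ano1 at 67.5 and 55.8 CPM versus 199.6 and 138 CPM. Kit, like Ano1 listed for interstitial cells of Cajal and picked after its values were seen, went the other way. It was at 73.7 and 83.7 CPM versus 12.7 and 32.9 CPM. Lyve1, of lymphatic vessels, was at 9.11 and 7.18 CPM versus 2.24 and 4.003 CPM. Rgs5, of pericytes, and Plvap, of fenestrated endothelium, followed the matrix genes, at 9.59 and 89.6 CPM versus 14.4 and 45.7 CPM and at 11.6 and 40.03 CPM versus 2.96 and 20.6 CPM. Among the lists for fat and immune cells, Cidec was at 28.98 and 18.2 CPM versus 46.9 and 30.8 CPM, and the mast cell protease gene Mcpt1 at 57.5 and 39.4 CPM versus 34.5 and 84.9 CPM. The genotypes did not overlap for C3, Ano1, Kit, Lyve1 and Cidec, as for 50.1% of all genes tested, and none had an adjusted p under 0.05. Relative to the smooth muscle gene Myh11, Col1a1 was not constant: per length it stood at 0.0792 and 0.143 of Myh11 in the wild-type libraries and at 0.153 and 0.227 in knockout. Myh11 had a log2 fold change of -0.43, while 6 of the 11 muscle genes had a positive one. Ratios to the other muscle genes were not taken.

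**Figure D5:**
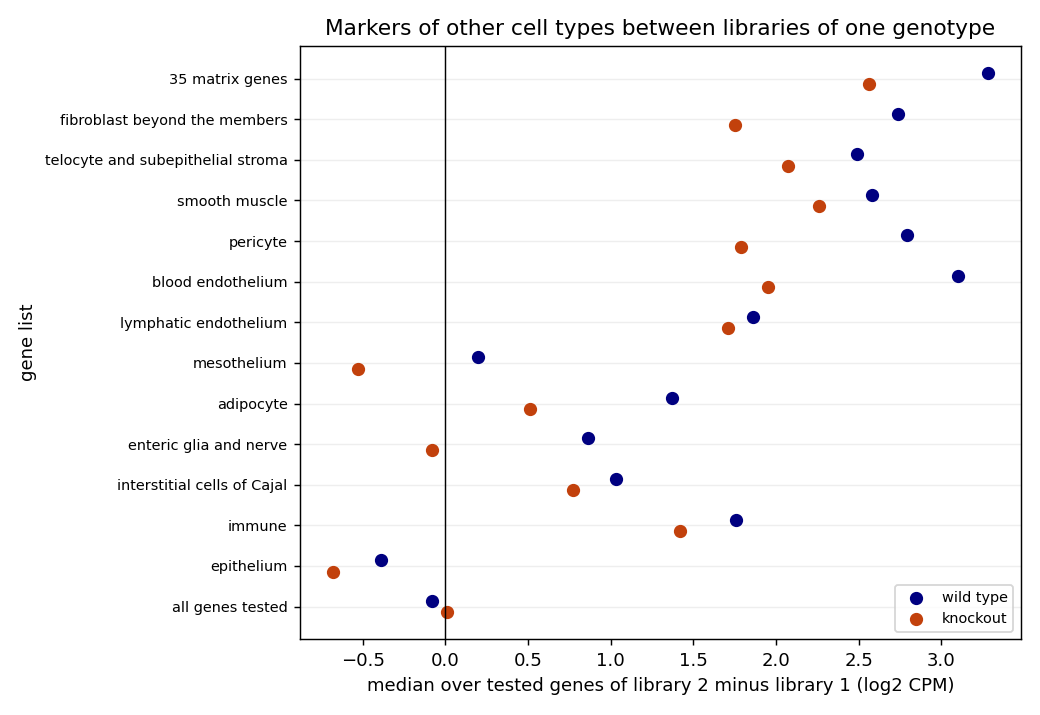
Median difference between the second and the first library of each genotype over the tested genes of each list, in log2 CPM. Blue points are wild type and orange points knockout. The tested matrix genes have the highest medians of the lists plotted, 3.28 and 2.56. Next come blood endothelium in wild type, at 3.10, and smooth muscle in knockout, at 2.26, and all genes tested lie near 0.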

How the data were processed

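Gene expression was measured by RNA sequencing in 4 libraries, 2 per genotype, from gastric corpus mucosa. Per the labels' protocols, RNA was column-purified and a stranded kit for mRNA was used. Per the submitters' processing notes the build was mm10. How reads were aligned and counted, with which annotation and whether by strand, is not given in the sources used here. The authors deposited estimated counts per gene without normalization. Of their nonzero values 35.0% were not whole, so the deposited expected counts were rounded. Identifiers without version matched GENCODE M21 for 34652 of 34866 rows.

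Knockout was compared with wild type by edgeR 4.0.16 in R 4.3.3 (quasi-likelihood, robust, TMM factors, filterByExpr with a minimum of 10 counts, no covariate) over 14067 genes, with Benjamini-Hochberg adjustment. A standard error is the log2 fold change divided by the square root of F. CPM use TMM-scaled library sizes. Per-length levels use the principal transcript. Within-genotype differences are of log2 CPM with a prior count of 2. Intervals of count ratios are Clopper-Pearson. DESeq2 1.42.0, limma 3.58.1 (voom), other scalings, filters and dispersion settings, the replicate block and leaving out each library were alternatives. The fit was first tested on simulated counts, drawn with dispersions estimated from these libraries, and the outcome is not reported here. Libraries of a genotype were not duplicates (chi-square per degree of freedom 139 and 272).

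The members and lists were chosen with earlier results of these data known. Named members were those past the adjusted threshold in any fit, the 5 with the smallest p in each direction and the most abundant per role. Named list genes were up to 3 per direction with non-overlapping groups and an unadjusted p under 0.05, and the most abundant marker of each list, of which 1 is not reported here. Serpinh1, Msln, Adipoq, Lep, Kit, Notch3 and the regional and Y-linked genes were chosen after their values were seen. In the annotation 13 members overlap another gene, 4 of them a gene of the table (Col4a1 with Col4a2, Timp3 with Syn3 and Fbn1 with Gm9913, on opposite strands), so counts could share reads if strand was not used.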

Additional observations from a re-analysis of the deposited data

How the results depend on the processing

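The absence of called members held in edgeR and limma under each alternative with all 4 libraries. Fits without 1 library also called no member, but there 1 genotype has a single library assumed to vary like the other, and without wild type 1 or 2 no gene at all was called, so they say nothing about stability. DESeq2 called 1 member, Col18a1. Over all genes, 0 were called in the reported fit, 1044 by DESeq2 and 9 without the filter, and leaving out 1 library gave 0 to 851, the last without knockout 2. The number of members higher ran from 3 to 34 and their median from -1.99 to 2.30 when 1 library was left out. With voom 24 members were higher and the median was 0.24. The replicate block gave 20 higher with a median of 0.15 and 0 called, and 5 members with an unadjusted p under 0.05 (Col18a1, Dcn, Dpt, Fn1 and Timp2), and same-numbered libraries deviated together over all genes (r = 0.52), which with 2 pairs does not show that the numbers pair the samples. Pair by pair the medians were 0.51 and -2.73 for knockout 1 against wild type 1 and 2, and 3.0 for knockout 2 against wild type 1, with 26, 2 and 34 members higher. The cause of these turns was not tested.

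Leaving out 1 library in turn moved the log2 fold change of single genes across 0. Among fibrillar collagens log2 fold changes ran from -1.93 to 2.97 for Col1a1, from -2.19 to 2.65 for Col1a2, from -1.96 to 3.35 for Col3a1, from -1.79 to 2.98 for Col5a1 and from -2.14 to 3.20 for Col5a2. For basement membrane genes they ran from -1.70 to 2.16 for Col4a1, from -1.45 to 2.12 for Col4a2, from -2.99 to 2.19 for Col15a1, from -3.88 to 2.23 for Lama2 and from -0.95 to 2.28 for Nid1. For the other collagens they ran from -2.52 to 2.33 for Col6a1, from -2.51 to 2.69 for Col6a2, from -1.18 to 2.90 for Col6a3 and from -1.46 to 1.01 for Col14a1. Proteoglycan genes ranged from -2.82 to 0.43 for Dcn, from -2.54 to 5.53 for Lum and from -3.13 to 1.58 for Dpt. Glycoprotein and elastic fibre genes ranged from -2.93 to 2.32 for Eln, from -2.22 to 2.05 for Fbn1, from -0.21 to 0.33 for Fbln1, from -2.22 to 1.62 for Fbln2, from -1.05 to 2.16 for Fn1, from -1.70 to 2.84 for Postn and from -1.89 to 2.24 for Sparc. Enzyme and inhibitor genes ranged from -2.59 to 1.0 for Lox, from -2.28 to 2.34 for Mmp2, from -2.02 to 0.27 for Timp2 and from -2.61 to 1.53 for Timp3. Receptor and surface genes ranged from -1.55 to 2.58 for Pdgfra, from -3.16 to 3.11 for Pdgfrb and from -0.52 to 0.40 for Thy1. Other named genes that turned were F3 from -0.80 to 2.88, Myh11 from -2.12 to 1.53, Rgs5 from -1.87 to 1.64, Plvap from -3.20 to 0.02, Krt19 from -0.30 to 0.97 and Mcpt1 from -0.54 to 0.77. With voom the sign turned for Col1a2 at 0.24, Nid1 at 0.72, Col6a1 at 0.03, Col6a2 at 0.23, Lum at 1.78, Eln at 0.10, Fbn1 at 0.20, Lox at -0.57, Mmp2 at 0.38, Pdgfra at 0.77 and Pdgfrb at 0.30. Under the replicate block it turned for Col1a2 at 0.21, Nid1 at 0.48, Col6a2 at 0.04, Lum at 0.74, Lox at -0.58, Mmp2 at 0.02 and Pdgfra at 0.33. Sparc was at -0.03 with relative log expression factors and with DESeq2, and at -0.04 without the filter.

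The fold between the summed members of the wild-type libraries was 6.57 with relative log expression factors, 6.61 as unscaled shares and 5.91 per length. Between the knockout libraries it was 3.20 per length and 4.65 without Col18a1. Depth limits Fap, Timp1, Lama2, Lum and Pdgfrb, which had under 10 counts in at least 1 library. With 2 libraries per genotype and a wide spread of stromal genes within each, the median standard error of 1.35 log2 units bounds what a genotype difference in these genes could show.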
